A study of Mus musculus with 16 samples.

Results

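The response of the suprarenal aorta to angiotensin II (AngII) in mice that lack Vamp8 was read from 8 of the 16 RNA-seq libraries of the study, 4 from knockout (KO) mice infused with AngII and 4 from KO mice infused with saline. The libraries were taken by their column names in the deposited count table, and every gene of that table entered, 29695 in all, of which 15984 had enough reads to be tested. All mice were male. KO mice were Vamp8-/-, and the wild-type (WT) mice used for reference were C57BL/6. AngII was given at 1000 ng/kg/min for 5 days from a subcutaneous osmotic minipump, and control mice had saline from the same kind of pump for the same 5 days. The vessel above the renal arteries was freed of surrounding tissue and sequenced as a whole after poly-A selection. Each value is thus a mean over all the cells left in the sample, and markers of fat, nerve and skeletal muscle were found among them. The submitters left out vessels with bleeding in the wall, which limits the model to vessels without overt disease. The sources used here do not say how the deletion was made.

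Vamp8 is a SNARE protein of endosomes, lysosomes and secretory granules. It pairs with syntaxins and SNAP proteins to fuse vesicles, including autophagosomes with lysosomes. AngII acts on the aorta mainly through the AT1 receptor of smooth muscle, and is known to raise blood pressure, matrix production and cell division in the wall.

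Across the 8 KO libraries total counts ran from 14737987 to 21643548. Vamp8 itself, the check of the labels, was at 53.3, 31.4, 26.3 and 24.9 CPM (counts brought to a common library size with TMM scaling) in KO saline replicates 1 to 4 and at 26.7, 24.6, 26.0 and 14.1 CPM in KO AngII replicates 1 to 4. WT libraries held 45.9 to 60.9 CPM, so on this scale the library labelled KO saline replicate 1 lay inside the WT range and against its label. As CPM without TMM scaling it held 38.2, below every WT library (51.0 to 63.4) and above the other KO libraries (16.4 to 27.8), and its TMM factor was 0.716. The sources used here do not name the exons that the deletion removes. The difference between KO AngII and KO saline for Vamp8 was not called (-0.57 on the log2 scale, SE 0.23, edgeR adjusted p = 0.208). Smooth muscle, which the tissue label implies, was present, since 20 contractile genes summed to between 12220 and 31610 CPM in the KO libraries. Fat was present too. The 19 general adipocyte markers summed to 34270 to 63480 CPM under saline and to 23140 to 48520 CPM under AngII. That was more than the contractile genes in every KO library but AngII replicate 2. Other libraries also stood apart. Sympathetic neuron markers summed to 7842 CPM under AngII replicate 4 and to at most 447 CPM in the other KO libraries. Skeletal muscle markers summed to 806 CPM under saline replicate 3 and to at most 72.3 CPM elsewhere in KO. Blood cell markers summed to 19460 CPM under AngII replicate 3 and to at most 5477 CPM elsewhere in KO. Brown adipocyte markers ran from 901 to 10760 CPM, and the library labelled KO saline replicate 1 held the most.

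AngII against saline in KO aorta gave 8 genes with an adjusted p under 0.05 by edgeR's quasi-likelihood test, here termed called, and all 8 were lower. That is 0.0501% of the genes tested. None was called higher (0%), while 1891 genes (11.8%) were higher and 1181 (7.39%) lower at an unadjusted p under 0.05. DESeq2 called 483 genes higher (3.02%) and 251 lower (1.57%), and limma voom called 300 higher (1.88%) and 261 lower (1.63%). By both tools together 200 genes were higher (1.25%) and 159 lower (0.995%). Counted without a model, 679 genes (4.25%) had all 4 KO AngII libraries above all 4 KO saline libraries, and 563 (3.52%) had all 4 below. The median log2 fold change over all genes tested was 0.02, and 51.9% of them had a positive one. Leaving out the library labelled KO saline replicate 1, edgeR called 10 genes, all lower, and 6 of the 8 were among them. Leaving out KO AngII replicate 4 gave 8 higher and 9 lower calls, with 7 of the 8 among the lower ones, and leaving out KO AngII replicate 1 gave 16 higher and 14 lower calls, with all 8 among them.

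Of the 8 called genes, 3 are copies of genes that are themselves expressed, and their parents had the opposite sign. Rps3a1, on chromosome 3 from 86137940 to 86142702 (GRCm38, minus strand), encodes a protein of the small ribosomal subunit. Rps3a2, on chromosome 14 from 88123017 to 88123808 on the minus strand, and Rps3a3, on chromosome 13 from 108670603 to 108671397 on the plus strand, are annotated as its processed pseudogenes. Tpm3, on chromosome 3 from 90072649 to 90100902 on the plus strand, encodes a tropomyosin that runs along actin filaments, and Tpm3-rs7, on chromosome 14 from 113314608 to 113316754 on the plus strand, is its related sequence. The stretches below show how little tells a copy from its parent. They are the 90 bases of the coding sequence with the most differences, at positions 579 to 668 for Rps3a1 and 38 to 127 for Tpm3 counted from the start codon. Capitals mark the bases at which a copy differs from its parent, and in the parent each base at which any copy differs.
Rps3a1: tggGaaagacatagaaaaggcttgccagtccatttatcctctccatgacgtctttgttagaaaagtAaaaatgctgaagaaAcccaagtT
Rps3a2: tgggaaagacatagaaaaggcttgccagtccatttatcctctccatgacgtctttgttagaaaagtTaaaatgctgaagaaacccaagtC
Rps3a3: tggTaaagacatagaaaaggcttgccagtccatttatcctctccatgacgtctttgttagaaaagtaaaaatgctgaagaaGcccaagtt
Tpm3: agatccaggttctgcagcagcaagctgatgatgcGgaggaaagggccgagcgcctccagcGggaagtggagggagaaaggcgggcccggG
Tpm3-rs7: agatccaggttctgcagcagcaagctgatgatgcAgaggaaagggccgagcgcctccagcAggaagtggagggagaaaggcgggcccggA

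Over the whole coding sequence, Rps3a2 differed from Rps3a1 at 4 of 792 bases and Rps3a3 at 9, with 3 bases more. Tpm3-rs7 differed from the closest Tpm3 transcript at 3 of 744 bases. Of all 100-base windows of a copy, 53.4% of those of Rps3a2, 18.4% of those of Rps3a3 and 80.3% of those of Tpm3-rs7 occurred letter for letter in the parent. A read that lies in such a window cannot be assigned by its sequence, and the sources used here do not say how the authors' counting treated it, so the counts of these copies and parents are uncertain.

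Rps3a3 was at 180, 226, 109 and 110 CPM in KO saline replicates 1 to 4 and at 2.17, 1.92, 2.08 and 1.88 CPM in KO AngII replicates 1 to 4. It fell by 6.28 on the log2 scale (SE 0.32, edgeR adjusted p = 5.18e-08). Here and from here on, values under saline or under AngII are those of KO libraries unless WT is named. The lowest KO saline library lay far above the highest KO AngII library, and the 8 WT libraries, at 1.27 to 3.30 CPM, lay at the KO AngII level. Rps3a2 was at 80.3, 221, 107 and 83.3 CPM under saline and at 3.71, 2.66, 3.99 and 3.42 CPM under AngII. It fell by 5.16 (SE 0.33, edgeR adjusted p = 6.67e-07), again without overlap and with WT libraries, at 2.81 to 5.08 CPM, near KO AngII. Tpm3-rs7 was at 48.9, 106, 43.4 and 51.9 CPM under saline and at 8.95, 15.7, 10.7 and 11.4 CPM under AngII, and fell by 2.42 (SE 0.28, edgeR adjusted p = 0.00135). KO saline replicate 2 was the highest library for each of the 3 copies.

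The parents had higher values with AngII. Rps3a1 was at 444, 119, 359 and 390 CPM under saline and at 638, 676, 697 and 576 CPM under AngII. Its groups did not overlap and KO saline replicate 2, the highest for both copies, was by far the lowest for the parent. The log2 fold change was 0.98 (SE 0.29), which edgeR did not call (adjusted p = 0.140) and DESeq2 and limma voom did (adjusted p = 0.0307 and 0.0439). Tpm3 was at 72.8, 38.1, 90.4 and 95.8 CPM under saline and at 105, 147, 132 and 147 CPM under AngII. It too was lowest in KO saline replicate 2, with a log2 fold change of 0.84 (SE 0.24, edgeR adjusted p = 0.136).

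Summed over parent and copies, the difference between the groups was within their spread. Rps3a1, Rps3a2 and Rps3a3 together came to 704, 567, 575 and 583 CPM under saline and to 644, 680, 703 and 581 CPM under AngII. The means were 607 ± 64.8 and 652 ± 53.4 CPM (SD, n = 4 each), and the groups overlapped (two-sided exact permutation p = 0.371, 0.557 adjusted over 3 sums). Tpm3 and Tpm3-rs7 together came to 137 ± 11.7 and 144 ± 21.8 CPM (SD, n = 4 each, two-sided exact permutation p = 0.571, also 0.571 adjusted). What differed was the split. The copies held 37.0%, 79.0%, 37.6% and 33.2% of the Rps3a reads in KO saline replicates 1 to 4 and between 0.672% and 0.914% in KO AngII, with 0.712% to 1.299% in WT. Tpm3-rs7 held 40.2%, 73.6%, 32.4% and 35.1% of the Tpm3 reads in KO saline and 7.16% to 9.66% in KO AngII, with 6.68% to 10.1% in WT. These shares rest on the same counts as the calls, so no test is given for them.

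**Figure D1:**
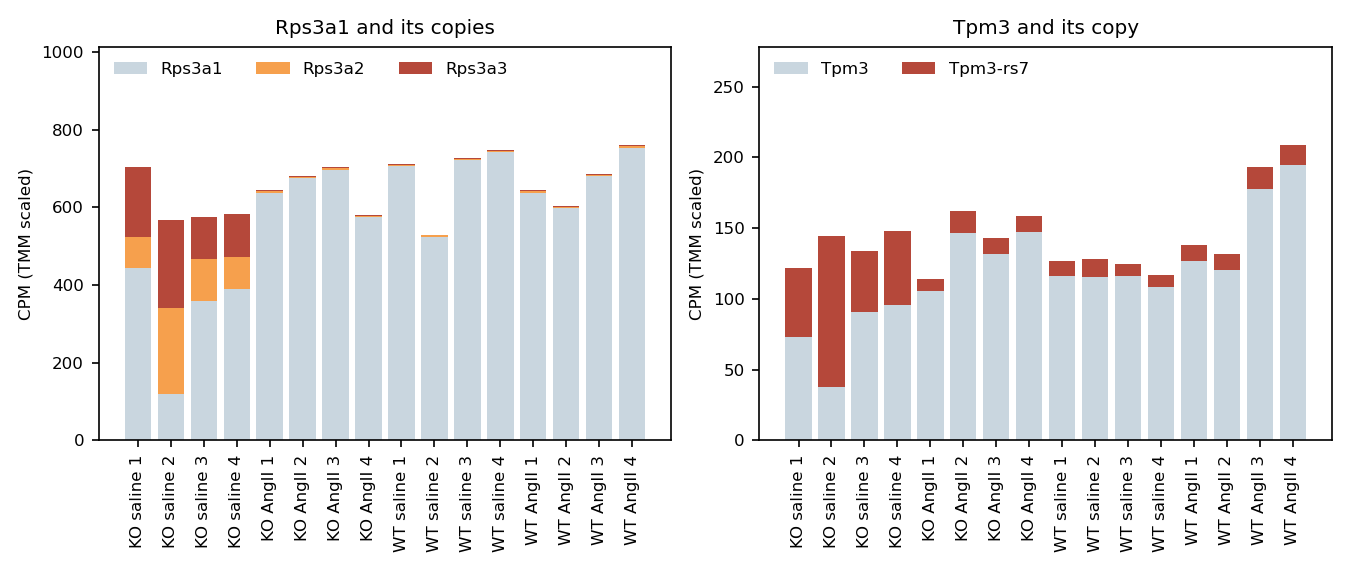
Stacked CPM of Rps3a1 with its 2 copies (left) and of Tpm3 with its copy (right), 1 bar per library, with KO saline, KO AngII, WT saline and WT AngII from left to right. The height of the KO saline and KO AngII bars overlaps, and the coloured part that stands for the copies is large in the 4 KO saline libraries, most of all in replicate 2.

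Rpl34 and its pseudogene Rpl34-ps1, named here after their values were seen, split their reads in another way. Their coding sequences match at 99.1% of aligned bases. Rpl34 was at 4.65, 2.07, 2.88 and 72.1 CPM under saline and at 0.685 to 2.24 CPM under AngII, against means of 153 and 164 CPM in the WT groups. Rpl34-ps1 was at 249, 178, 153 and 75.0 CPM under saline, where replicate 4 was the lowest, and at 137 to 152 CPM under AngII. Together they came to 184 ± 48.2 CPM under saline and 144 ± 6.99 CPM under AngII (SD, n = 4 each, two-sided exact permutation p = 0.0571, 0.171 adjusted over 3 sums). The log2 fold change of Rpl34 alone was -3.98, and -1.31 without KO saline replicate 4.

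Hist1h2al is annotated as a processed pseudogene of a histone H2A gene and was closest to Hist2h2aa1 and Hist2h2aa2, with an edit distance of 2 over its 339 bases. It had 114, 132, 72 and 89 reads in KO saline replicates 1 to 4 and 0 in each KO AngII and each WT library. Taking 3 counts over the group as the floor, the AngII level was at least 165.5-fold lower (edgeR adjusted p = 0.0145). The call was lost without KO saline replicate 2 or 4 or the library labelled KO saline replicate 1, without the last together with KO AngII replicate 4, and with a replicate block.

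Of the other 4 called genes, Ly6c1 has a paralogue in the table and the rest were not matched to a copy. AY036118 was at 106, 73.9, 43.8 and 88.6 CPM under saline and at 16.2, 13.4, 18.04 and 15.9 CPM under AngII, and fell by 2.29 on the log2 scale (SE 0.27, edgeR adjusted p = 0.00179). Its groups did not overlap, and here the WT libraries, at 45.9 to 98.0 CPM, lay at the KO saline level. Snhg20, a host gene of small nucleolar RNA, was at 8.39, 9.91, 9.49 and 11.8 CPM under saline and at 3.36, 2.85, 3.499 and 4.45 CPM under AngII. It fell by 1.48 (SE 0.19, edgeR adjusted p = 0.00430), and the WT libraries, at 3.81 to 7.96 CPM, overlapped KO AngII and lay below KO saline. Prxl2c, a peroxiredoxin-like protein, was at 92.2, 68.0, 53.8 and 51.7 CPM under saline and at 37.4, 32.5, 34.6 and 28.1 CPM under AngII. It fell by 1.00 (SE 0.17, edgeR adjusted p = 0.0432), below the WT range of 62.9 to 82.6 CPM. That call was the least secure, since it was absent in 17 of 27 other settings.

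Ly6c1, a GPI-anchored surface protein of endothelial cells and of some leukocytes, was at 282, 233, 227 and 251 CPM under saline and at 129, 129, 99.3 and 119 CPM under AngII. All 4 AngII libraries lay below all 4 saline libraries, and it fell by 1.06 on the log2 scale (SE 0.15, edgeR adjusted p = 0.0135). The WT libraries, at 87.3 to 138 CPM, lay at the KO AngII level. Its paralogue Ly6c2, whose coding sequence matches at 97.7% of bases, was at 0.140 to 1.53 CPM in KO. The call was lost without KO AngII replicate 3, without KO AngII replicate 4 and the library labelled KO saline replicate 1 together, with only KO libraries in the fit and after a correction for transcript length, and it held in the other settings.

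**Figure D2:**
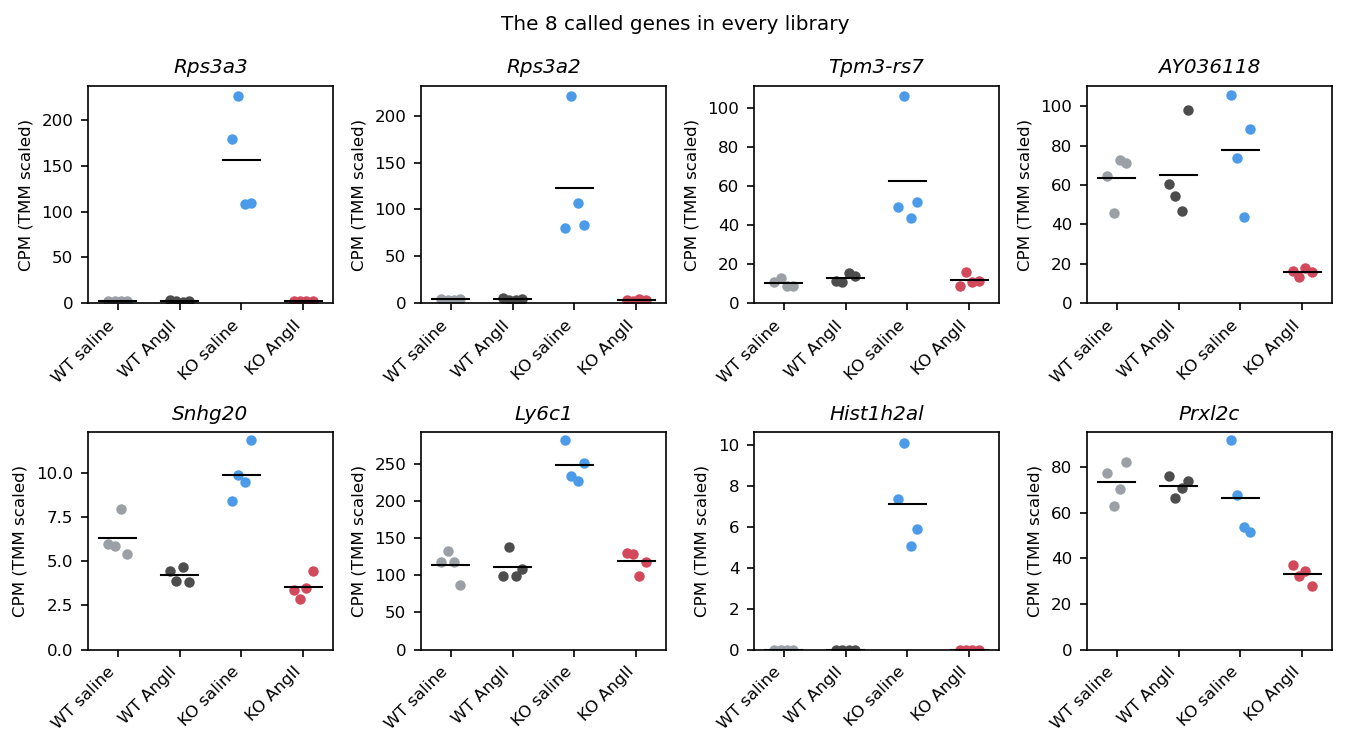
CPM of the 8 called genes, 1 point per library, with the black bar at the mean of 4. KO saline and KO AngII do not overlap in any panel. In the panels of Rps3a3, Rps3a2, Tpm3-rs7, Ly6c1 and Hist1h2al the WT libraries sit with KO AngII, and in those of AY036118 and Prxl2c they overlap KO saline and lie above KO AngII.

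Below the threshold, the genes with the smallest p in each direction and no overlap of the groups were taken by rule, and none was called by edgeR. Among the higher ones were Cyld, a deubiquitinase that restrains NF-kappa-B signalling, with 31.8, 39.3, 38.9 and 38.8 CPM under saline and 52.9, 60.0, 62.7 and 59.6 CPM under AngII (0.66 on the log2 scale, SE 0.12, edgeR adjusted p = 0.0701). Esr1, the estrogen receptor alpha, was at 24.6 to 28.9 CPM under saline and at 33.9 to 50.1 CPM under AngII (0.66). Fhod3, a formin that organises actin in muscle, was at 2.13 to 3.16 CPM and at 6.16 to 20.5 CPM (2.27). Alcam, a cell adhesion molecule, was at 13.7 to 19.1 CPM under saline and at 36.0 to 40.5 CPM under AngII replicates 1 to 3, with 77.8 CPM in replicate 4. The other 6, Zdhhc14, Eprs, Dnajc13, Dcun1d4, Rab3gap2 and Lonrf1, had log2 fold changes of 0.50 to 1.02. Adjusted p for the 10 lay between 0.0701 and 0.0848 by edgeR, and all 10 passed both DESeq2 and limma voom.

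Among the lower ones, Gng11, a G protein gamma subunit, was at 83.3, 69.5, 66.1 and 73.0 CPM under saline and at 35.05, 48.7, 36.9 and 45.2 CPM under AngII (-0.81 on the log2 scale, SE 0.15, edgeR adjusted p = 0.0701). Ly6a, the stem cell antigen Sca-1, was at 204 to 318 CPM under saline and at 119 to 157 CPM under AngII (-0.88). Hoxb4, a homeobox factor, was at 13.6 to 18.3 CPM and at 6.39 to 10.9 CPM (-0.89). Mir99ahg, a long RNA that hosts microRNAs, was at 7.81 to 17.2 CPM and at 3.54 to 6.11 CPM (-1.41). For Gng11 the WT groups averaged 35.1 and 36.4 CPM, close to KO AngII. The other 6 were Tmc6, Inafm1, Sox17, 1810034E14Rik, Zfp707 and Rgl2, with log2 fold changes of -1.95 to -0.56. All 10 passed DESeq2 and all but 1810034E14Rik passed limma voom.

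Genes of the extracellular matrix were mostly higher in KO AngII than in KO saline, although edgeR called none of them. Matricellular genes summed to 5932 to 7982 CPM under saline, below every WT library (8084 to 31810 CPM), and to 8579 to 18310 CPM under AngII. Matricellular proteins sit in the matrix and signal to cells. Of 23 such genes, 18 had a positive fold change. Their median was 0.66 on the log2 scale (0.44 by limma voom), against 0.02 for all genes and 0.97 for the list in WT. In 4 of the 23, Postn, Fn1, Tnc and Ccn5, all AngII libraries lay above all saline libraries, where 4.25% of all genes did so. DESeq2 and limma voom both called Postn, Fn1, Tnc and Ccn2. Postn, periostin, which helps collagen assembly, was at 583, 987, 676 and 502 CPM under saline and at 1835, 2457, 2866 and 1167 CPM under AngII (1.60 on the log2 scale, SE 0.36, edgeR adjusted p = 0.106). Fn1, fibronectin, was at 621, 1032, 753 and 820 CPM and at 1691, 2895, 3125 and 1703 CPM (1.55, SE 0.36, edgeR adjusted p = 0.106). Both were highest in KO AngII replicates 2 and 3. Tnc, tenascin C, was at 39.1, 61.2, 45.5 and 36.6 CPM and at 103, 202, 218 and 78.0 CPM (1.72). Ccn2, a connective tissue growth factor, was at 279 to 478 CPM under saline and at 265, 2300, 4439 and 302 CPM under AngII, so that only replicates 2 and 3 stood above saline.

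Collagens and the genes that fold and export them also had mostly positive fold changes. Their sums under saline again lay below every WT library. They were 3423 to 6570 against 8420 to 40030 CPM for fibrillar collagens and 2436 to 3454 against 3988 to 11320 CPM for other collagens. For folding and export they were 1822 to 2331 against 2705 to 5870 CPM, and for elastic fibre genes 2914 to 4145 against 4726 to 29920 CPM. The sums under AngII overlapped the low end of WT in each list. Fibrillar collagens had a median of 0.66 over 9 genes, with no overlap for Col5a1, and other collagens had a median of 0.46 over 18 genes, with no overlap for Col15a1, Col6a3 and Col12a1. The fibrillar median was 0.32 without both KO AngII replicate 4 and the library labelled KO saline replicate 1, and the other was 0.30 without the latter and 0.30 after a correction for transcript length. Col15a1, a collagen of basement membranes, was at 103, 178, 127 and 126 CPM under saline and at 199, 245, 280 and 184 CPM under AngII (0.76 on the log2 scale, SE 0.25, edgeR adjusted p = 0.155). Among 27 genes of collagen folding and export the median was 0.35, and 4 of the 27 did not overlap, all higher, where 4.25% of all genes did so. Sec23a, a coat protein of vesicles that leave the endoplasmic reticulum, was at 48.0, 57.3, 49.2 and 51.8 CPM and at 71.1, 80.0, 82.2 and 85.7 CPM (0.63, SE 0.14, edgeR adjusted p = 0.106). Mia3, which loads collagen into those vesicles, was at 49.5 to 75.4 CPM and at 85.9 to 118 CPM, and Plod2, a lysyl hydroxylase, at 25.7 to 40.6 CPM and at 49.8 to 76.5 CPM. Sec23a, Mia3 and Plod2 each passed DESeq2 and limma voom. Elastic fibre genes had a median of 0.36 over 17 genes, and of 0.55 in WT. The WT medians were 0.81 for fibrillar collagens, 0.35 for other collagens and 0.34 for folding and export. Eln, elastin, was at 1231 to 1876 CPM under saline and at 2007 to 4186 CPM under AngII (1.04, SE 0.38, edgeR adjusted p = 0.187), below the WT means of 5768 and 17390 CPM.

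Integrins, the receptors for this matrix, had a median of 0.46 over 21 genes, 18 of them positive. Itgb3 was at 34.1, 47.4, 47.3 and 47.6 CPM under saline and at 77.3, 84.2, 114 and 52.2 CPM under AngII (0.89). Itga5, the fibronectin receptor subunit, was at 69.2 to 125 CPM and at 142, 360, 561 and 80.6 CPM, with KO AngII replicate 4 inside the saline range. Myofibroblast genes had a median of 0.66 over 14 genes, and of 0.89 in WT. The KO median was 0.38 without KO AngII replicate 4 and 0.24 without both that library and the library labelled KO saline replicate 1. Among 13 protease inhibitors the median was -0.01.

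**Figure D3:**
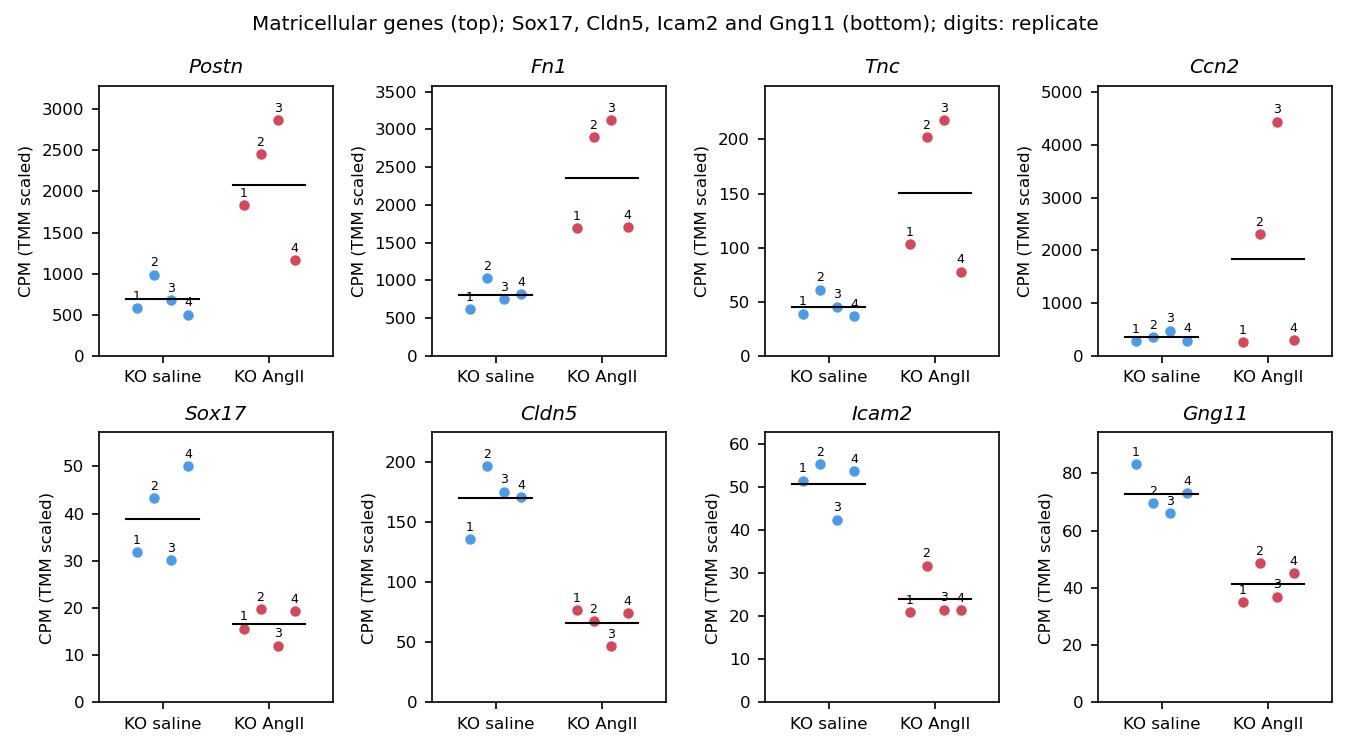
CPM of Postn, Fn1, Tnc and Ccn2 (top) and of Sox17, Cldn5, Icam2 and Gng11 (bottom) in the 8 KO libraries, with the replicate number above each point and the black bar at the mean of 4. In the top row KO AngII replicates 2 and 3 are the highest, and Ccn2 alone overlaps, while in the bottom row the 4 KO AngII points lie below the 4 KO saline points.

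Endothelial genes were mostly lower in KO AngII. Of 23 vascular endothelial markers 20 had a negative fold change, with a median of -0.47 on the log2 scale. It stayed between -0.66 and -0.36 in every other setting tried, and the list's median in WT was -0.24. Ly6c1 was the only called member, and 4 of the 23 lay wholly below saline (Ly6c1, Sox17, Cldn5 and Egfl7), where 3.52% of all genes did. Sox17, a transcription factor of arterial endothelium, was at 31.8, 43.3, 30.2 and 50.1 CPM under saline and at 15.6, 19.7, 12.03 and 19.3 CPM under AngII (-1.22 on the log2 scale, SE 0.24, edgeR adjusted p = 0.0847). Cldn5, the claudin of endothelial tight junctions, was at 136, 196, 175 and 171 CPM and at 76.5, 67.3, 47.0 and 73.9 CPM (-1.36, SE 0.31, edgeR adjusted p = 0.106). The groups stood clear of each other in both genes.

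Further genes of endothelial cells outside or inside that list had lower values too. Icam2, an adhesion molecule for leukocytes, was at 51.5, 55.2, 42.4 and 53.6 CPM under saline and at 20.9, 31.8, 21.5 and 21.3 CPM under AngII (-1.08, SE 0.24, edgeR adjusted p = 0.106). Pdgfb, a growth factor that draws mural cells, was at 75.6 to 85.6 CPM and at 44.6 to 51.2 CPM (-0.72). Eng, endoglin, was at 230 to 336 CPM and at 150 to 235 CPM (-0.58), with a small overlap. Nos3, the endothelial nitric oxide synthase, was at 41.5 to 76.5 CPM and at 29.5 to 52.4 CPM (-0.59), with a wider one. In Sox17, Cldn5, Icam2 and Pdgfb the WT means lay near KO AngII and not near KO saline, for instance 85.4 and 59.8 CPM for Cldn5. In bulk tissue, fewer endothelial cells and less RNA of these genes per cell cannot be told apart. The summed list overlapped between groups (8573 to 12920 CPM under saline and 5153 to 9890 CPM under AngII). Fabp4 is counted both in this list and among the general adipocyte markers, so the sum is not of endothelial genes alone. Replicate 1 of each KO group had the top endothelial sum (12920 and 9890 CPM) and the top adipocyte sum (63480 and 48520 CPM). The order of the other replicates differed between these sums. The part of fat in the endothelial sum was not tested. Brown adipocyte markers were lower in KO AngII, as most endothelial markers were, with 15 of 15 fold changes negative. Their median was -0.80, or -1.40 without KO AngII replicate 1 and -0.25 without the library labelled KO saline replicate 1. The endothelial median was -0.46 and -0.59 without the same libraries.

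Smooth muscle genes were a little higher, and unevenly so. Of 20 contractile genes 18 had a positive fold change, with a median of 0.34 against -0.38 in WT. The KO median was 0.14 without KO AngII replicate 2, 0.22 without KO AngII replicate 3 and 0.21 without the library labelled KO saline replicate 1. The sum over the list was 17820 to 24780 CPM under saline, 25590, 31140 and 31610 CPM under AngII replicates 1 to 3 and 12220 CPM under AngII replicate 4. That last library, the one with the neuronal markers, was the lowest of the 8. Actg2, an enteric and vascular smooth muscle actin, was at 66.6, 72.0, 54.9 and 58.4 CPM under saline and at 144, 350, 171 and 89.1 CPM under AngII (1.58, SE 0.37, edgeR adjusted p = 0.106), with WT means of 147 and 140 CPM, and it was the only member without overlap. Cnn1, calponin, was at 455 to 481 CPM under saline and at 685, 1337, 1260 and 316 CPM under AngII. Myocd, the coactivator that drives contractile genes, was at 7.04 to 24.4 CPM and at 23.5, 66.3, 69.3 and 15.6 CPM. In both, replicates 2 and 3 were the highest and replicate 4 lay inside or below the saline range. Tead1, another of their regulators, did not overlap, at 34.1 to 58.3 CPM and at 60.9 to 91.1 CPM (0.61). Pln, phospholamban, which restrains the calcium pump, was lower, at 12.01 to 29.96 CPM under saline and at 3.78 to 7.82 CPM under AngII (-1.59, SE 0.50, edgeR adjusted p = 0.152).

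**Figure D4:**
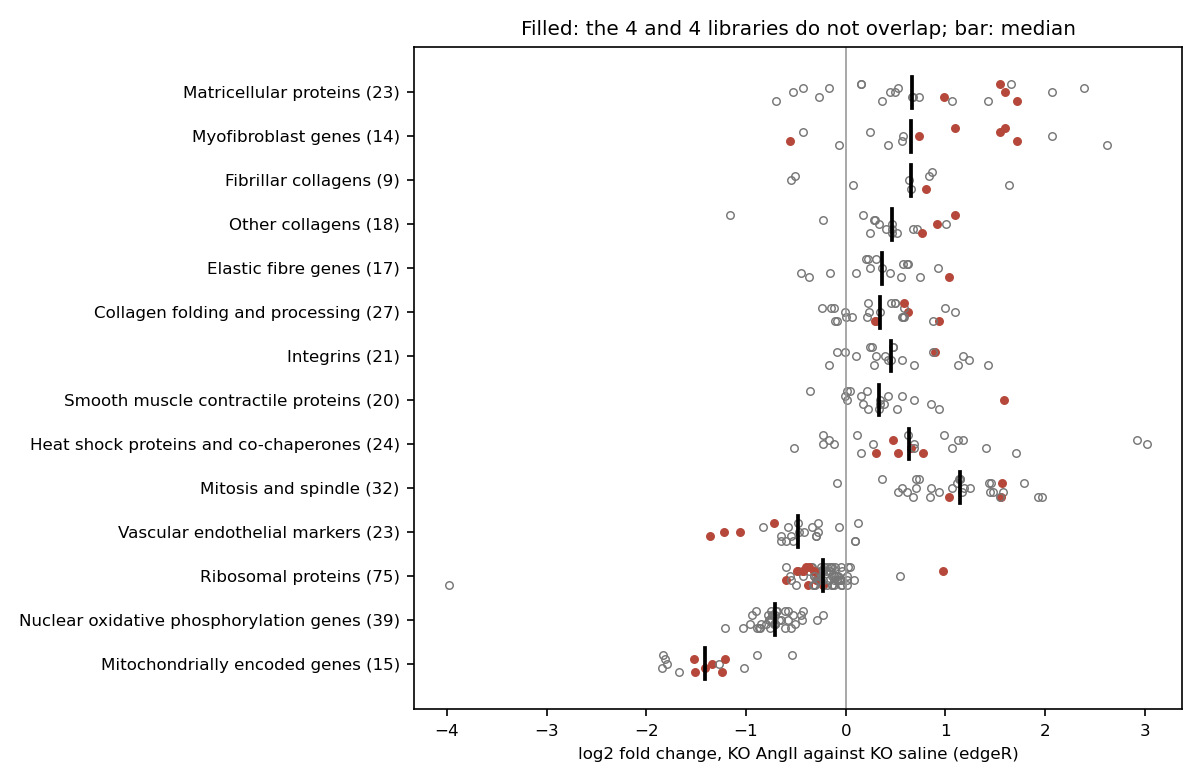
Log2 fold change of each tested member of 14 gene lists, KO AngII against KO saline, with the number of members in brackets. The black bar is the list's median and filled points are members whose 4 and 4 libraries do not overlap. Matrix and mitosis lists lie mostly right of 0, and endothelial and mitochondrial lists mostly left of it.

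Among genes of AngII signalling, Rgs5, which dampens G protein signalling in mural cells, was at 578, 500, 356 and 340 CPM under saline and at 714, 1779, 1060 and 628 CPM under AngII (1.24 on the log2 scale, SE 0.36, edgeR adjusted p = 0.140, passing DESeq2 and limma voom). Its WT means were 1269 and 1110 CPM, at the KO AngII level. Tgfb2, a matrix-inducing growth factor, was at 23.6 to 31.2 CPM and at 35.1, 115, 175 and 34.5 CPM (1.70). The receptor gene Agtr1a was at 3.46 to 7.24 CPM under saline and at 5.25, 7.52, 3.61 and 49.6 CPM under AngII, where replicate 4 alone was high. Without that library its log2 fold change was -0.03. Lnpep, an aminopeptidase that cleaves angiotensin peptides, was at 116 to 142 CPM and at 143 to 232 CPM (0.52), without overlap. The early response genes Nr4a3 and Atf3 separated the AngII libraries from one another. Nr4a3 was at 2.996 to 5.83 CPM under saline and at 5.04, 39.6, 101 and 5.08 CPM under AngII, and Atf3 at 7.30 to 32.9 CPM and at 3.29, 82.1, 269 and 8.90 CPM. Replicates 2 and 3 were thus the high libraries for Nr4a3, Atf3, Ccn2 and Tgfb2, and replicates 1 and 4 lay in or near the saline range for them.

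Genes of mitosis had positive fold changes in 31 of 32 cases, with a median of 1.14, against 2.93 in WT. Top2a, a topoisomerase of dividing cells, was at 1.68, 6.30, 4.00 and 2.20 CPM under saline and at 5.67, 13.5, 9.84 and 19.9 CPM under AngII (1.79, SE 0.42, edgeR adjusted p = 0.106), with an overlap of single libraries. Anln, anillin, which closes the cleavage furrow, did not overlap, at 16.7, 25.5, 19.7 and 14.6 CPM and at 34.8, 42.3, 50.5 and 29.2 CPM (1.03, SE 0.26, edgeR adjusted p = 0.113), and it alone in the list passed DESeq2 and limma voom. KO AngII replicate 4 had the highest sum over the list, 224 CPM, and the median was 0.74 without it. Of 28 DNA replication genes 24 had a positive fold change, with a median of 0.22, or 0.12 without KO AngII replicate 4. Pcna, the DNA clamp of replication and one of the 4 negative members, was at 19.6 to 38.5 CPM under saline and at 13.5 to 18.2 CPM under AngII (-0.72). Heat shock genes had a median of 0.64 over 24 genes, or 0.42 without KO AngII replicate 3. Stip1, a co-chaperone, was at 65.5, 65.7, 65.8 and 66.5 CPM under saline, nearly constant, and at 70.4, 84.8, 116 and 108 CPM under AngII (0.52, SE 0.15, edgeR adjusted p = 0.135). In the unfolded protein response 6 of 23 genes did not overlap and were higher (4.25% of all genes), among them Atf6, its sensor and factor, at 34.4 to 46.4 CPM and at 47.3 to 68.9 CPM (0.54), and Hspa5, the main chaperone of the endoplasmic reticulum, at 238 to 264 CPM and at 320 to 373 CPM (0.42).

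Mitochondrially encoded RNA took 32.8%, 31.2%, 27.0% and 31.2% of counts in KO saline replicates 1 to 4 and 24.2%, 17.0%, 12.98% and 10.1% in KO AngII replicates 1 to 4. WT libraries held 8.33% to 17.7%, below every KO saline library, and KO AngII replicates 2 to 4 lay inside that range. The KO means were 30.5% ± 2.49 and 16.1% ± 6.12 (SD, n = 4 each), without overlap (two-sided exact permutation p = 0.0286, the smallest that 4 against 4 allows, 0.0571 adjusted over 2 library measures). Total counts, the other measure, had means of 16980000 and 16910000 (exact permutation p = 1). Of 15 mitochondrial genes all had negative fold changes, with a median of -1.42 (-0.87 without both KO AngII replicate 4 and the library labelled KO saline replicate 1), and edgeR called none. mt-Nd2, a complex I subunit, was at 49340, 33310, 26870 and 33340 CPM under saline and at 20510, 12180, 9997 and 7095 CPM under AngII (-1.52, SE 0.40, edgeR adjusted p = 0.121). The 39 nuclear genes of oxidative phosphorylation also all had negative fold changes, with a median of -0.71, but none was free of overlap, and the median was -0.16 without the library labelled KO saline replicate 1, -1.08 without KO AngII replicate 1 and -0.41 by limma voom. Cox8a, a subunit of cytochrome oxidase, shows this, at 1574, 508, 522 and 480 CPM under saline and at 572, 308, 322 and 308 CPM under AngII. Fatty acid oxidation genes had a median of -0.60, or -0.21 and -1.05 without the first and the second of these libraries. Elovl3, an elongase of brown fat, was at 408, 87.8, 167 and 94.8 CPM and at 80.9, 3.00, 16.1 and 2.28 CPM (-2.90), without overlap. Of 19 general adipocyte markers 13 had negative fold changes, with a median of -0.31, or -0.16 and -0.49 without the same libraries. Lep, leptin of white fat, was against the list's direction, at 8.84 to 16.7 CPM under saline and at 14.8, 69.97, 38.1 and 30.1 CPM under AngII (1.63, SE 0.40, edgeR adjusted p = 0.111).

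Fold changes followed transcript length across genes. In the quartile of genes with the shortest longest-transcript, up to 1984 bases, the median log2 fold change was -0.23, and it was -0.04, 0.07 and 0.22 in the next quartiles, the last of which began at 4659 bases. Genes without overlap were split likewise, 38 higher and 273 lower in the shortest quartile and 378 higher and 36 lower in the longest. Spearman's rho was 0.37 over 15797 genes, which are not independent replicates, and -0.13 in WT. Single KO libraries, each set against the mean of all 8, had a rho with length of -0.443 in the library labelled KO saline replicate 1, -0.097 to 0.003 in the other saline libraries and 0.011 to 0.304 under AngII. Without the library labelled KO saline replicate 1 the rho of the fold changes was 0.24, with medians of -0.09 and 0.15 in the shortest and longest quartiles. Ribosomal protein genes, of a median length of 1106 bases, had a median of -0.23 over 75 genes, with 10 wholly lower, where 3.52% of all genes were, and Rps3a1 alone wholly higher. That median was -0.06 by limma voom and -0.07 when the library labelled KO saline replicate 1 was left out. With a correction for length, added after the relation was seen, it was 0.03. The same correction left the matricellular median at 0.60, the endothelial one at -0.48 and the mitochondrial one at -1.18. With it the median of the integrin list went from 0.46 to 0.31. For nuclear oxidative phosphorylation genes it went from -0.71 to -0.42. The part of length, RNA quality or library preparation in the result was not tested further.

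**Figure D5:**
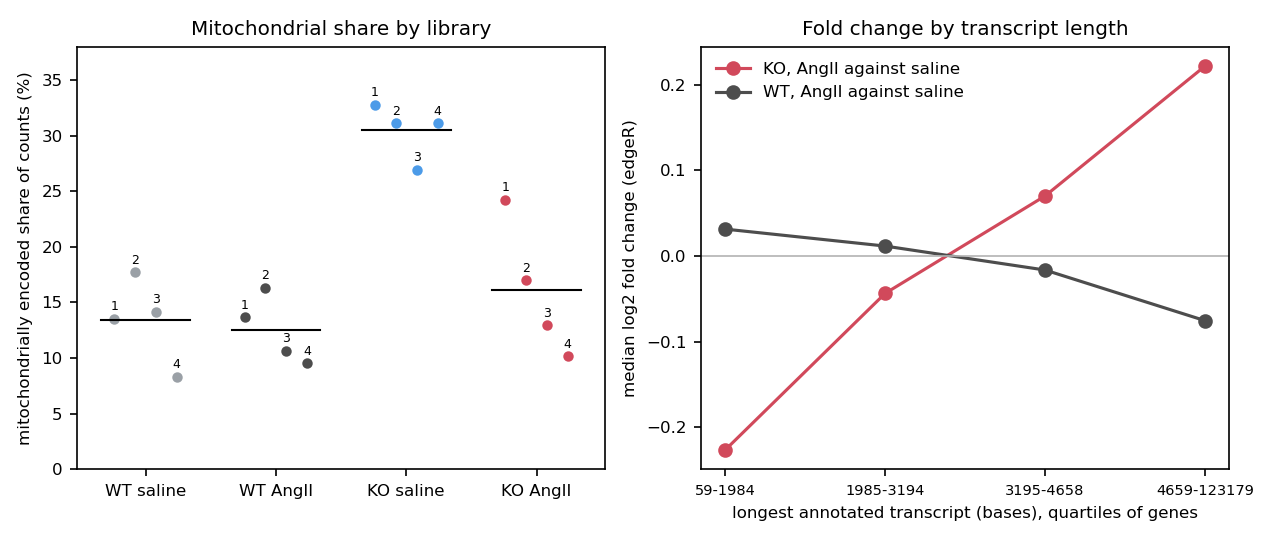
Left, mitochondrially encoded share of counts in percent, 1 point per library with its replicate number and the black bar at the mean of 4. Right, median log2 fold change (AngII against saline) of genes in quartiles of longest annotated transcript, in KO and WT. The KO saline points lie above 26% and the KO AngII points below 25%, and the KO line goes from -0.23 to 0.22 with length while the WT line does not.

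Inflammatory and leukocyte gene lists had medians from -0.19 (monocyte and neutrophil markers) to 0.25 (T, B and NK cell markers). Macrophage markers had a median of 0.02 over 21 genes, chemokines of 0.09 over 23, complement of -0.03 over 19 and interferon-stimulated genes of 0.09 over 28, and no member was called by edgeR or by both other tools. Each of these 4 medians changed sign in at least 1 other setting. In WT the medians of the same lists were 0.56, 0.87, 0.13 and -0.03, and that of monocyte and neutrophil markers was 1.06. Ccr2, the monocyte chemokine receptor, was at 3.86 to 6.68 CPM under saline and at 8.04, 9.10, 8.86 and 22.9 CPM under AngII (1.13, SE 0.63, edgeR adjusted p = 0.332), without overlap and highest in replicate 4. Timd4, a marker of resident macrophages, was at 1.84 to 2.86 CPM and at 0.799 to 1.82 CPM (-0.91). Of 21 macrophage markers, 12 had a positive fold change, and only Timd4 did not overlap, where 3.52% of all genes were wholly lower. Of 10 monocyte and neutrophil markers, 6 had a negative fold change, and only Ccr2 did not overlap, where 4.25% of all genes were wholly higher.

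Genes around Vamp8 itself showed small differences. Over 21 genes of SNARE proteins and their partners, Nsf, Napa, Stxbp2 and Stxbp3 among them, the median was -0.06. Stx4a, a syntaxin of the plasma membrane, was the only one without overlap. It was at 84.4, 70.1, 69.2 and 77.6 CPM under saline and at 59.0, 50.9, 57.9 and 63.5 CPM under AngII (-0.38, SE 0.11, edgeR adjusted p = 0.140). Of 23 autophagy genes the median was -0.03. Atg9a, which carries membrane to the growing autophagosome, was at 3.55, 11.3, 13.5 and 13.5 CPM under saline and at 23.6, 18.3, 19.2 and 23.4 CPM under AngII (1.01, SE 0.28, edgeR adjusted p = 0.135). Atg7, an enzyme of its conjugation system, was at 35.6 to 53.2 CPM and at 26.6 to 32.6 CPM (-0.45). Of 25 lysosomal genes the median was 0.01, with Scarb2, Ctsl and Npc1 higher without overlap and Ctsz lower. Scarb2, a lysosomal membrane protein, had a log2 fold change of 0.33 and alone passed DESeq2 and limma voom. Npc1, a cholesterol exporter, was at 15.5 to 27.0 CPM and at 28.2 to 31.2 CPM, and Ctsz, a cathepsin, at 156 to 292 CPM and at 126 to 136 CPM. edgeR called none of these. Of all genes tested, 4.25% lay wholly higher and 3.52% wholly lower. In lists of 21 to 25 genes, 1 such member in a direction is near that share.

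Whether AngII acted differently in KO and WT aorta was tested as an interaction. edgeR called 3 genes (0.0188%), Rps3a3, Rps3a2 and Tpm3-rs7, the copies whose split from their parents differed in KO saline alone. DESeq2 called 100. AY036118 had an interaction of -2.32 on the log2 scale (SE 0.37, edgeR adjusted p = 0.0621). For Ly6c1 and Snhg20 the edgeR adjusted p was 0.357 and 0.361, and for Postn and Fn1 it was 0.899 and 0.633, so a difference between genotypes was not shown for them. The sources used here do not say whether the KO saline libraries were sequenced, aligned and counted together with the other 3 groups. A difference in that handling and the effect of AngII in KO therefore cannot be told apart for these copies. The same holds for every other difference between KO AngII and KO saline given here.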

How the data were processed

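RNA of 16 suprarenal aortae was sequenced, with 4 libraries in each of 4 groups that the labels call biological replicates. The authors deposited raw counts of reads per gene, with no normalization. Per the submitters' processing notes, reads went through HISAT2 2.0.5 on GRCm39 and featureCounts 1.5.0-p3, and DESeq2 1.20.0 is named too. The sources used here do not give the annotation release, the strand setting or how multiply matching reads were handled. The reference used here was GENCODE M21 on GRCm38, for names, positions, transcript length and sequences.

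Genes were kept by edgeR's default filter, which removed 13711 of 29695, and libraries were scaled with TMM, a trimmed mean of log ratios. Genes were tested with edgeR 4.0.16's quasi-likelihood F test over all 16 libraries with 4 group means, which leaves 12 residual degrees of freedom, and Benjamini-Hochberg adjustment over 15984 genes. A called gene has an adjusted p under 0.05. SE was the fold change divided by the square root of F. DESeq2 1.42.0 and limma 3.58.1 (voom with quality weights) were alternatives, with other scaling, filters, a replicate block and each library left out. Single values were tested by exact permutation. The coding stretches were aligned with edlib. The edgeR function was tested on simulated counts. Members and gene lists were chosen with earlier results of these data known. Named were Vamp8, the called genes and their parents or paralogues, the 10 uncalled genes per direction with the smallest p, no overlap and at least 5 CPM in the higher group, and up to 4 members per list by p. Ccn5, Col5a1 and Egfl7 were named after their values were seen. Some genes that the rule names are not reported here. A symbol was blank for 2725 genes and filled for 2502 from a name table. Total counts of the KO libraries limit a gene at 0 reads to under 3 counts per group, for counting error only.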

Additional observations from a re-analysis of the deposited data

Results flagged for a closer look

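edgeR's interaction test called 3 genes, with values of -6.32 for Rps3a3, -5.16 for Rps3a2 and -2.75 for Tpm3-rs7 on the log2 scale. Each has a high level in KO saline and a low one in the other 3 groups. Summed with their parents, their counts overlapped between KO saline and KO AngII. A difference in the handling of the KO saline libraries and a response to AngII cannot be told apart for them.

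Single libraries stood far from the other 3 of their group, by Dixon's test at the 95% level, in 20 of 190 group values examined. The nominal rate of 1 in 20 holds for independent values with a normal distribution. The genes here were mostly chosen by their values and share the same libraries, so that rate is no reference for this count. The library labelled KO saline replicate 1 accounted for 6 of the 20. It was low for Cyld (31.8 CPM), Mia3 (49.5 CPM) and Itgb3 (34.1 CPM) and high for Cox8a (1574 CPM), Atg7 (53.2 CPM) and Ctsz (292 CPM). KO AngII replicate 4 accounted for 5. It was low for Vamp8 (14.1 CPM) and high for Alcam (77.8 CPM), Agtr1a (49.6 CPM), Ccr2 (22.9 CPM) and Uchl1 (878 CPM), the last a neuronal enzyme at 72.2 CPM in the next library.

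The rest were spread over other libraries. KO saline replicate 2 was high for Tpm3-rs7 (106 CPM) and Per1 (40.6 CPM), KO saline replicate 3 for the muscle oxygen carrier Mb (45.7 CPM), while it was low for Ctsl (265 CPM), and KO saline replicate 4 for Rpl34 (72.1 CPM). KO AngII replicate 1 was high for Cox8a (572 CPM) and Ctsz (136 CPM), replicate 2 for Icam2 (31.8 CPM) and replicate 3 for the haemoglobin gene Hbb-bt (2429 CPM).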

How the results depend on the processing

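Rps3a3, Rps3a2 and AY036118 stayed called in all 27 other settings, and Tpm3-rs7 and Snhg20 in all but the fit of KO libraries alone. The total of 8 called genes became 734 with DESeq2 (483 higher, 251 lower), 561 with limma voom (300 higher, 261 lower), 14, all lower, with a replicate block and 4, all lower, with KO libraries alone. Leaving out single libraries gave 6 to 32 calls, with 0 to 16 higher and 6 to 18 lower, and the most came without WT saline replicate 2 (14 higher and 18 lower). Replicate numbers were not used as pairs in the main fit. Same-numbered deviations from the group mean correlated at 0.442, 0.187, -0.188 and -0.166, and differently numbered ones at -0.362 to 0.337. These values cannot show whether samples were paired, since deviations within a group depend on one another. DESeq2 called 100 interactions against 3. The cause of these differences between tools was not tested. The mitochondrially encoded share of counts differed by -17.1 to -12.4 percentage points without single libraries, with exact permutation p = 0.0571 whenever a KO saline library was left out. The difference in total counts ran from -844400 to 1484000. Agtr1a, between -0.03 and 1.89 on the log2 scale without single libraries, changed sign without KO AngII replicate 4, also when the library labelled KO saline replicate 1 was left out with it (-0.0816), and the other 92 named genes kept theirs. Of 65 lists, 37 kept the sign of their median in every setting. The length correction was chosen after seeing the data. Among the called genes depth was lowest for Hist1h2al, with 72 to 132 reads per KO saline library.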

Other observations

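Some gene groups not described above also differed between KO AngII and KO saline libraries, and edgeR called none of the genes named here. Over 19 genes of cholesterol synthesis the median was 0.66 on the log2 scale, which was -0.14 without KO AngII replicate 4 and 0.22 by limma voom. Srebf2, the factor that drives them, was at 60.7, 75.9, 84.1 and 84.8 CPM under saline and at 89.8, 126, 124 and 195 CPM under AngII, without overlap, and passed DESeq2 and limma voom. Replicate 4 was the highest library for Srebf2.

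Clock genes had a median of 0.25 over 17 genes. Per2, a period protein, was at 15.4 to 20.5 CPM under saline and at 27.1, 41.3, 47.5 and 15.2 CPM under AngII, and Per1 at 29.8 to 40.6 CPM and at 31.9, 95.7, 102.5 and 31.7 CPM. For Per1 replicates 2 and 3 stood apart from replicates 1 and 4, which is the split seen for Nr4a3, Atf3 and Ccn2. The sources used here do not give the time of day at which vessels were taken.

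Targets of p53 had lower values in KO AngII for Gadd45a, at 6.53 to 10.1 CPM and at 3.99 to 5.82 CPM, and for Bax, at 30.1 to 32.4 CPM and at 17.6 to 26.8 CPM, both without overlap, over a list median of -0.09 (-0.15 to -0.05 in the other settings). Of 19 fibroblast markers 7 had a positive and 12 a negative fold change, with a median of -0.05. That median changed sign by limma voom (0.09) and without KO saline replicate 4 (0.06). Mfap5 and Lum had the highest fold changes, 0.44 each, and Thy1 (0.30) and Col14a1 (0.28) were positive too, named here after their values were seen. Clec3b was at 198 to 308 CPM and at 116 to 203 CPM, and Pi16 at 268 to 486 CPM and at 168 to 300 CPM. Npr1, the natriuretic peptide receptor, was at 73.1 to 109 CPM and at 134, 147, 160 and 82.0 CPM. Chga, a marker of chromaffin cells, was at 0 to 2.97 CPM under saline and at 0, 14.9, 0.219 and 82.6 CPM under AngII.

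By annotated class, 336 tested long intergenic RNAs held 28 genes (8.33%) wholly lower and 0 wholly higher in KO AngII, against 432 (3.11%) lower and 643 (4.63%) higher among 13891 protein-coding genes. Over all genes tested the shares were 3.52% lower and 4.25% higher. The 2 classes differ in length, with medians of 1726.5 and 3436 bases. In the shortest quartile of all genes, 273 of 3950 were wholly lower and 38 wholly higher. The part of length in the difference between classes was not tested.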
